A study of Mus musculus with 4 samples.

Results

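Oxidative phosphorylation genes were taken as all features whose symbol begins with Nduf, Cox4, Cox5, Cox6, Cox7, Cox8, Uqcr, Sdh or Atp5, or with mt-Nd, mt-Co, mt-Cytb or mt-Atp. The rule found 110 of the 31053 features. Of these, 97 are nuclear genes and 13 are the protein-coding genes of the mitochondrial genome, written mt-. The nuclear members divide into 36 subunits of complex I, 4 of complex II, 8 of complex III, 20 of complex IV and 17 of complex V, with 8 complex I and 4 complex II assembly factors. The mitochondrial members belong to complex I (7), complex III (1), complex IV (3) and complex V (2). One symbol, Atp5o, stands on 2 rows, so the nuclear members have 96 distinct symbols.

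These proteins carry electrons from NADH and succinate to oxygen and use the resulting proton gradient to make ATP. Complex I (Nduf and mt-Nd genes) and complex II (Sdh) feed electrons in, complexes III (Uqcr, mt-Cytb) and IV (Cox, mt-Co) pass them on to oxygen, and complex V (Atp5, mt-Atp) is the ATP synthase. The core subunits made inside the mitochondrion have to be matched by subunits made from nuclear mRNA, and lymphocytes that divide or secrete antibody are known to rely on this pathway along with glycolysis. In single-cell data a high share of mt- RNA is widely used as a sign of damaged cells, so the mt- members are also the measure on which barcodes are commonly discarded.

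The data were 4 mouse single-cell libraries made with 10x Genomics 5′ chemistry, which tags the 5′ end of each transcript, with 1 library in each group. Leukocytes (CD45+ by flow sorting) came from the pancreas of pre-diabetic females aged 12 weeks, 4 mice pooled per library. T cells (CD3, magnetic separation) came from the pancreatic lymph node of pre-diabetic females aged 8 weeks, 5 mice pooled per library. In each tissue 1 library was from Ocabfl/fl mice (control) and 1 from Ocabfl/fl.CD4-Cre mice, so both genotypes carry the floxed Ocab (Pou2af1) alleles. In the second genotype Cre is driven by the Cd4 promoter, which is active in developing T cells and not in B, NK or most myeloid cells. The labels name no strain. With 1 library per group there is no spread between animals or preparations, so no test was made. All intervals are exact 95% intervals that cover counting error only, and each difference is one between libraries. Tissue, age and cell selection differ together and cannot be told apart, so genotypes were compared within a tissue only.

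Cell barcodes were kept from 500 detected genes upward and up to 10% mt- UMIs (unique molecular identifiers, counted transcripts), and were gated by marker genes. The pancreas libraries gave 2237 control and 4024 CD4-Cre T barcodes, 878 and 1322 B, 222 and 304 NK, 12 and 16 plasma, and 450 and 398 myeloid barcodes. The lymph node libraries gave 2768 and 5538 T barcodes. Barcodes that passed 2 gates (7.15% and 6.96% in pancreas, 0.377% and 0.159% in lymph node) were left out. All 4 T markers were detected in the T barcodes of every library, at 4289 to 4425 per 1000000 UMIs, beside 178 to 317 for the myeloid markers. The gates use these same markers, so these levels describe the gate and do not measure its purity. NK markers stood at 555 and 453 in pancreas and at 18.2 and 18.1 in lymph node T barcodes, since a barcode with 2 T markers counted as T also where it had NK markers. Their part in the NK over T ratios was not tested. Pou2af1 itself gave 48 UMIs in the control pancreas T barcodes against 10 with CD4-Cre, 65 against 3 in lymph node T barcodes, and 798 against 1310 in pancreas B barcodes. Per 1000000 UMIs outside mt- and immunoglobulin genes these were 5.60 against 0.628, 4.72 against 0.115, and 238 against 261. Median depth was 3433 to 4694 UMIs per T barcode. Pairs of libraries shared 21 to 70 barcodes. Exocrine mRNA made up 0.0150% of UMIs in control and 0.104% in CD4-Cre pancreas T barcodes. Red cell mRNA was 0.0573% and 4.28e-05% there, and 0.0556% and 0% in the lymph node. In B barcodes of the pancreas red cell mRNA was 0.0318% and 0.000228%. The part of these RNAs in any difference between the genotypes was not tested.

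Nuclear levels are given in CPM, UMIs of a member or of all members per 1000000 UMIs of genes that are neither mt- nor immunoglobulin. The mt- level is given as the percentage of all UMIs. A 5′ library counts 1 end of each molecule, so values are not divided by gene length, and levels between genes compare molecules captured.

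In T cells of the pancreas the nuclear members stood at 21020 CPM in control (counting interval 20923 to 21117) and 21025 in CD4-Cre (20954 to 21097). In the lymph node they stood at 21628 (21551 to 21706) and 21944 (21887 to 22001). The intervals of the 2 pancreas libraries overlap, and the lymph node libraries lie above both. Complex V was the largest nuclear group, at 6739 and 6826 in pancreas and 7182 and 7244 in lymph node. Complex I followed at 5885.5, 5899, 6153 and 6306, and complex IV at 5558, 5472, 5393 and 5504. Complex III was at 2135, 2098, 2128 and 2148. Complex II, which has no mt- subunit and also works in the citric acid cycle, was the smallest at 355, 369, 394 and 366.

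Single T cell levels are given in the order pancreas control, pancreas CD4-Cre, lymph node control and lymph node CD4-Cre. Atp5e, the epsilon subunit of ATP synthase, was the most abundant nuclear member at 945, 899, 1007 and 1052 CPM. Cox4i1, a nuclear subunit of cytochrome c oxidase, stood at 797, 816, 726 and 743. Cox8a, another nuclear subunit of that enzyme, stood at 793, 789, 674 and 686, so both Cox genes were higher in both pancreas libraries than in both lymph node libraries. Atp5g2, which encodes the c-ring subunit through which protons pass, stood at 716, 735, 759 and 767. Its paralog Atp5g3, which gives the same mature protein, stood at 591, 602, 634 and 630, and for both genes the lymph node libraries were the higher ones. Uqcrh, the hinge protein of complex III, stood at 779, 750, 679 and 703.

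The other leading members are given as means of the 4 T cell levels. In complex III, Uqcrq stood at 336 and Uqcr10 at 246 CPM. In complex I, the most abundant were the accessory subunits Ndufa13 (427), Ndufa6 (325) and Ndufa3 (324). Ndufa3 was the least even of them, at 284 and 278 in pancreas and 339 and 395 in lymph node. In complex II, the iron-sulphur subunit Sdhb stood at 136, the flavoprotein Sdha at 116.5 and the membrane anchor Sdhd at 66.1. Assembly factors, which help to build the complexes and are not part of them, were lower: Ndufaf8 stood at 71.8 and Ndufaf3 at 45.0 for complex I, and Sdhaf4 at 46.4 and Sdhaf2 at 41.7 for complex II.

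Promoter sequence of 4 members is shown because their levels carry the results. Atp5e is the most abundant, Sdhb leads complex II, and Cox7a2l and Cox6b2 differ between classes of leukocytes. These are RefSeq promoters on GRCm38.p6, the 250 bases before the annotated start, written 5′ to 3′ on the gene's strand. Capitals mark matches, on either strand, to the core of the NRF1 site (GCGCATGC), the GABP or ETS site (CCGGAAG) or the YY1 site (AAGATGGC), factors known to act at many genes of the respiratory chain.
Atp5e: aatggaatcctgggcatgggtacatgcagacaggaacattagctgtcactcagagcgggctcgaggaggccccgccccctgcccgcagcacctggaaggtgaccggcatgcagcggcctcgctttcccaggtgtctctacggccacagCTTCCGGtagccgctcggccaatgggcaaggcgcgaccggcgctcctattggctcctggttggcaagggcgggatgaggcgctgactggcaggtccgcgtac
Sdhb: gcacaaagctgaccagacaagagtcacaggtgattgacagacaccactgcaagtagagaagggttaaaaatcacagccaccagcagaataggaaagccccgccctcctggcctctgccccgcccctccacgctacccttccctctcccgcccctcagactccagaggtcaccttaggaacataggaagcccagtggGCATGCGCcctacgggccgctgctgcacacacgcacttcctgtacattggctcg
Cox7a2l: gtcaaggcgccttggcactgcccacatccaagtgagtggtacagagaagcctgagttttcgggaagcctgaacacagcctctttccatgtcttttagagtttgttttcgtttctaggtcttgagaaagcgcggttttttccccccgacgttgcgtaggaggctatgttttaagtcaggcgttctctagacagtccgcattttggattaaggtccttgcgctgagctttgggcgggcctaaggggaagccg
Cox6b2: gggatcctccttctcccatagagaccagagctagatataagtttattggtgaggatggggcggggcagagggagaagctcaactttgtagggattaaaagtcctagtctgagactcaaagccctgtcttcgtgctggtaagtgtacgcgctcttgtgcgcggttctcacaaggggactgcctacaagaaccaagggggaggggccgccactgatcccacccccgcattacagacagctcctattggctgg
The windows lie at chr2:174464102-174464351 (minus strand), chr4:140961021-140961270 (plus strand), chr17:83514334-83514583 (minus strand) and chr7:4753095-4753344 (minus strand). In the printed bases Atp5e holds a GABP or ETS match and Sdhb an NRF1 match, both on the strand opposite to the one printed. The letters of Cox7a2l and Cox6b2 hold none of the 3 motifs. Shares were taken over windows of 300 bases, which add the 50 bases after the start. In those added bases Sdhb also holds a GABP or ETS match. Of the 97 nuclear members 79 had a promoter in the RefSeq table, with 83 windows in all. The NRF1 letters were in 14.5% of the members' windows and in 2.71% of all 32851 windows of the table. The GABP or ETS letters were in 25.3% and 8.86%, and the YY1 letters in 12.0% and 2.75%. At least 1 of the 3 was in 43.4% of the members' windows and in 13.3% of all. The last 3 bases of the GABP or ETS letters are the first 3 of the YY1 letters, and 0 of the members' windows held the 2 motifs overlapping in that way. A match describes letters only.

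The first question of the design was whether deletion of Ocab with CD4-Cre was accompanied by a different level of these genes in T cells. The nuclear members as a whole differed by a log2 ratio (CD4-Cre over control) of 0.00036 in pancreas T cells (-0.0079 to 0.0086) and 0.021 in lymph node T cells (0.015 to 0.027). The mt- members stood at 2.61% of UMIs in control and 2.56% in CD4-Cre pancreas T cells, a log2 ratio of -0.025 (-0.032 to -0.017). In lymph node T cells they stood at 2.65% and 2.75%, a ratio of 0.056 (0.050 to 0.062). In 3 of these 4 ratios the counting interval left out 0, and none can be set against a spread between animals.

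**Figure D1:**
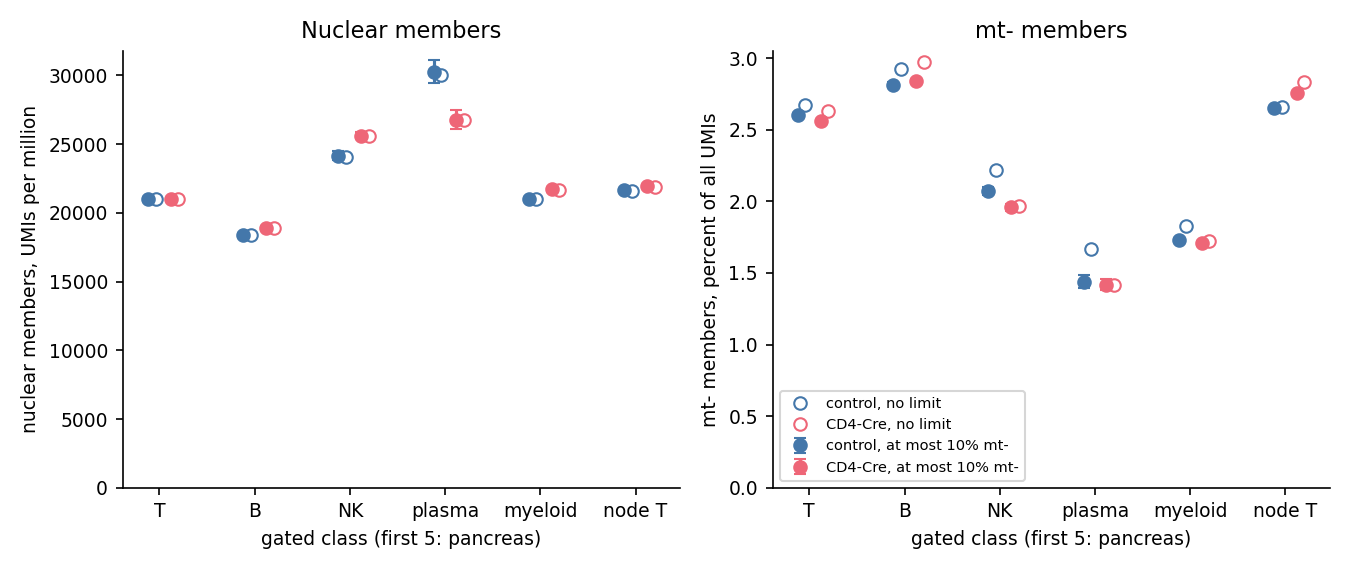
Level of the nuclear members (CPM, UMIs per 1000000 UMIs outside mt- and immunoglobulin genes) and of the 13 mt- members (percent of all UMIs) by gated class in each library. Filled points are barcodes within the 10% mt- limit with 95% counting intervals and open points have no limit; in the pancreas NK and plasma barcodes have the highest nuclear levels (24143 to 30275) and B barcodes the lowest (18403 and 18911), while B barcodes have the highest mt- shares (2.81% and 2.84%).

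By complex, the nuclear log2 ratios in pancreas T cells were 0.003 for complex I, 0.055 for complex II, -0.026 for complex III, -0.023 for complex IV and 0.018 for complex V. In lymph node T cells they were 0.035, -0.107, 0.014, 0.029 and 0.012. Complex II in the lymph node had the ratio farthest from 0, with a counting interval of -0.155 to -0.059. Its flavoprotein Sdha was the lowest member there, at 133 CPM in control and 114 with the Cre (-0.23, interval -0.31 to -0.14). Ndufs1, an iron-sulphur subunit of complex I, was next at 40.1 and 34.3 (-0.22). Atp5k, the e subunit of ATP synthase, was the highest at 143 and 167 (0.23), beside Ndufa3 at 339 and 395 (0.22). In the pancreas the extremes were Ndufs5, an accessory subunit of complex I, at 113 and 93.6 (-0.27), and the assembly factor Ndufaf1 at 12.9 and 16.6 (0.36, interval 0.04 to 0.69).

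A member was counted as past the fold where its log2 ratio was at least 0.5 in size with at least 100 UMIs over both libraries. In pancreas T cells 0 of 88 nuclear members did so, where 1.84% of all 9260 features were higher and 3.46% lower in CD4-Cre. In lymph node T cells it was also 0 of 88, where 0.603% of 9446 features were higher and 4.79% lower. Without a UMI minimum 1 member passed in each tissue. The members' median log2 ratio was 0.027 in the pancreas, beside 0.014 over all features, and 0.018 in the lymph node, beside -0.087 over all features. With edgeR TMM library sizes the lymph node median became 0.013 over all features and 0.12 over the members, with DESeq2 size factors 0.016 and 0.12. These scalings shift all features of a library by the same amount, so the distance between the medians is fixed. The split of all lymph node calls, 57 higher and 452 lower (11.2% higher), became 108 and 275 with TMM (28.2%) and 112 and 272 with DESeq2 (29.2%). The count of members past the fold stayed at 0 in both tissues under both scalings.

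**Figure D2:**
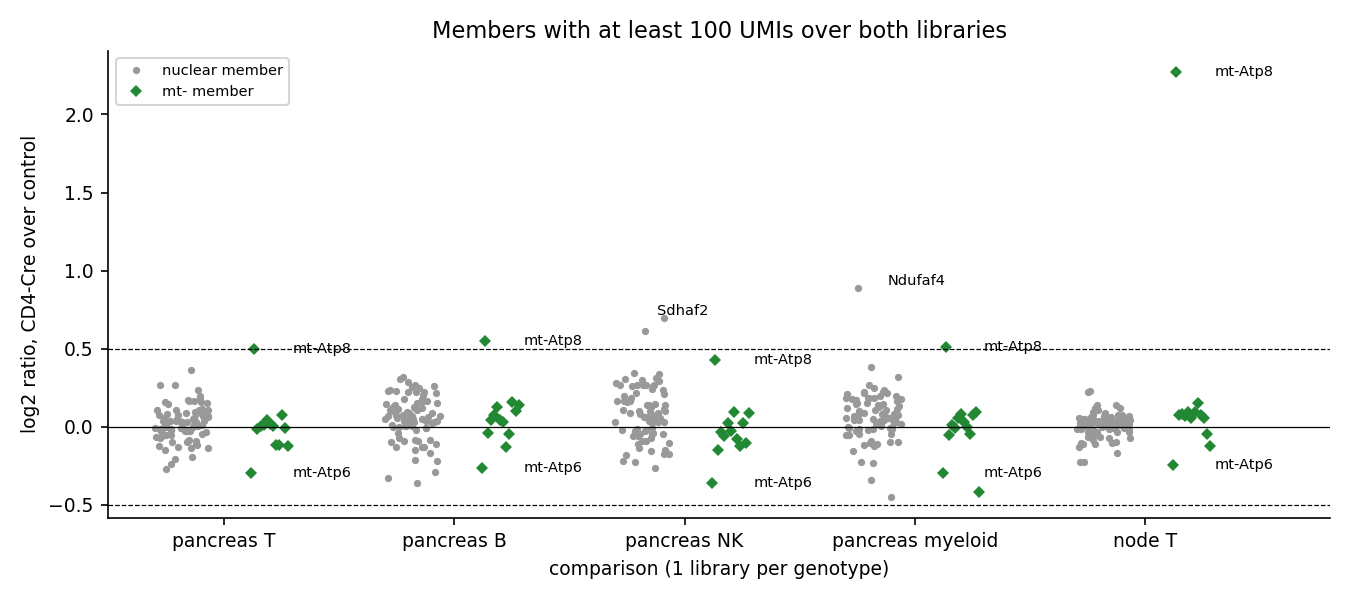
Log2 ratio of CD4-Cre over control for each member with at least 100 UMIs, in 5 comparisons (node is the pancreatic lymph node), with nuclear members as grey points, mt- members as green diamonds and dashed lines at 0.5 and -0.5. All 88 nuclear members of pancreas T and of lymph node T cells lie between the lines, 2 nuclear members in NK and 1 in myeloid cells lie above them, and mt-Atp8 is the highest point in lymph node T cells (2.27).

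Among the 13 mt- members a single gene went past the fold in T cells. mt-Atp8, a short subunit of ATP synthase, made up 0.0786% of UMIs in control and 0.111% in CD4-Cre pancreas T cells, a log2 ratio of 0.50 (0.46 to 0.54). In lymph node T cells it made up 0.0216% and 0.104%, a log2 ratio of 2.27 (2.22 to 2.33) from 3053 and 28006 UMIs. Lymph node control was the low library of the 4. An mt-Atp8 UMI was found in 88.6% and 94.4% of pancreas T barcodes and in 62.2% and 97.1% of lymph node T barcodes.

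Its neighbour mt-Atp6, the proton-channel subunit a, differed in the opposite direction. It made up 0.456% and 0.371% of UMIs in pancreas T cells (-0.30) and 0.547% and 0.462% in lymph node T cells (-0.24). On the mitochondrial genome (GRCm38) mt-Atp8 spans MT:7766-7969 and mt-Atp6 spans MT:7927-8607, and they share 43 bases and 1 transcript. Counted together they made up 0.569% and 0.566% of lymph node T cell UMIs, a log2 ratio of -0.006 (-0.018 to 0.006). In pancreas T cells the pair made up 0.534% and 0.482% (-0.149, -0.165 to -0.132). The pair was also lower in the other pancreas classes of the CD4-Cre library. Its log2 ratio was -0.113 in B, -0.210 in NK, -0.250 in plasma and -0.152 in myeloid barcodes, so the difference was not particular to T cells.

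The share of mt-Atp8 within the pair differed between libraries, and much less between the classes of a library. In the pancreas control library it was 14.7% in T, 14.8% in B, 15.3% in NK, 15.6% in plasma and 14.2% in myeloid barcodes. In the pancreas CD4-Cre library it was 23.1%, 23.4%, 23.8%, 23.7% and 22.5%. In the lymph node it was 3.79% in control T, 3.04% in control B and 5.17% in control myeloid barcodes (9 mt-Atp8 UMIs), and 18.4% in CD4-Cre T barcodes. In the pancreas the 5 classes thus differed between the libraries by similar amounts. In the lymph node only T barcodes could be compared, and their difference was larger. How the authors' software assigned reads within the shared bases is not given in the sources used here, and its part in the shift was not tested.

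**Figure D3:**
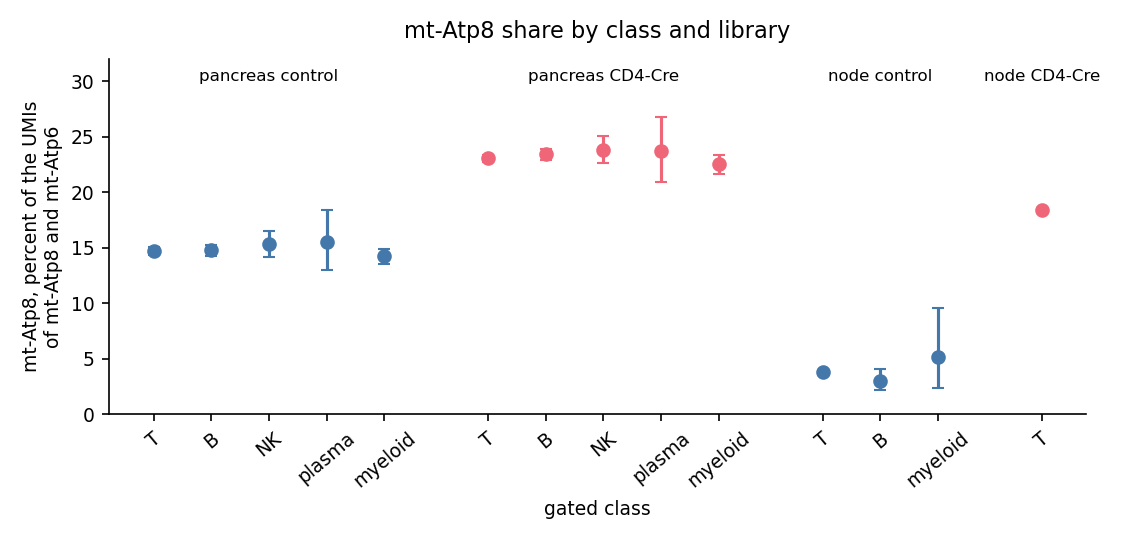
Share of mt-Atp8 in the UMIs of mt-Atp8 and mt-Atp6 (percent) by gated class within each library (control blue, CD4-Cre red, node the pancreatic lymph node), with exact 95% binomial intervals. The classes of a library lie together (14.2% to 15.6% in pancreas control, 22.5% to 23.8% in pancreas CD4-Cre), and the libraries lie apart.

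The other 11 mt- members differed less in T cells, with log2 ratios from -0.12 to 0.15. mt-Co1, the catalytic subunit of complex IV and the most abundant of them, made up 0.504% and 0.499% of UMIs in pancreas and 0.468% and 0.493% in lymph node T cells. mt-Co2 stood at 0.357%, 0.358%, 0.347% and 0.367%, and mt-Co3 at 0.367%, 0.369%, 0.377% and 0.395%. mt-Cytb, the cytochrome b of complex III, stood at 0.236%, 0.243%, 0.260% and 0.277%. In complex I, mt-Nd1 stood at 0.158%, 0.159%, 0.147% and 0.153%, and mt-Nd2 at 0.118%, 0.118%, 0.109% and 0.116%. mt-Nd4l stood at 0.174%, 0.184%, 0.221% and 0.229%. It shares 7 bases with mt-Nd4, which stood at 0.0668%, 0.0615%, 0.0554% and 0.0582%, and its share of that pair was 72.3%, 74.9%, 79.9% and 79.7%. mt-Nd5 stood at 0.0523%, 0.0520%, 0.0499% and 0.0482%. mt-Nd3 had the highest ratio of the lymph node at 0.0433% and 0.0481% (0.15), and stood at 0.0339% and 0.0312% in the pancreas (-0.12). mt-Nd6, the member encoded on the other strand, was the least abundant at 0.0050%, 0.0046%, 0.0042% and 0.0039%. Without mt-Atp8 and mt-Atp6 the summed mt- log2 ratio turned from -0.025 to 0.0056 in pancreas T cells and went from 0.056 to 0.072 in lymph node T cells.

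In the pancreas classes that CD4-Cre does not target, the nuclear level was 18403 in control and 18911 in CD4-Cre B cells, a log2 ratio of 0.039 (0.025 to 0.054). That direction depended on the scaling: with TMM the ratio was -0.031 and with DESeq2 -0.029. In NK cells the level was 24143 and 25621 (0.086, 0.061 to 0.111), with complex V at 0.140 the highest complex. In myeloid cells it was 21022 and 21703 (0.046, 0.031 to 0.060), and -0.020 without neutrophil-gated barcodes. In plasma cells, of which there were 12 and 16 barcodes, it was 30275 and 26780 (-0.177, -0.233 to -0.121). The mt- share was 2.81% and 2.84% in B, 2.07% and 1.96% in NK, 1.73% and 1.71% in myeloid and 1.44% and 1.42% in plasma cells. Immunoglobulin mRNA made up 40.4% and 43.0% of plasma cell UMIs, and outside it the mt- share was 2.41% and 2.48%.

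Few nuclear members passed the fold in these classes. In B cells 0 of 85 did, where 3.94% of all features were higher and 1.68% lower in CD4-Cre. Of the B cell calls over all features 70.1% were higher (277 and 118 lower), against 49.6% with TMM (184 and 187) and 50.3% with DESeq2 (187 and 185). The B cell members' median was 0.059 beside 0.078 over all features, and -0.012 and -0.0090 with those scalings. In NK cells 2 of 77 members were higher, where 4.49% of features were higher and 3.83% lower, and the members' median was 0.080 beside 0.028. Ndufv1, the subunit of complex I that binds NADH, stood at 48.4 CPM in control (41 UMIs) and 73.9 with the Cre (96 UMIs), which is 0.61 on the log2 scale (0.07 to 1.17). Sdhaf2, which attaches the flavin to Sdha, stood at 39.0 (33 UMIs) and 63.1 (82 UMIs), a ratio of 0.70 (0.10 to 1.32). In myeloid cells 1 of 83 was higher, where 2.96% of features were higher and 6.71% lower, and the median was 0.056 beside 0.0027. That member was the complex I assembly factor Ndufaf4, at 16.2 (58 UMIs) and 29.9 (107 UMIs), a ratio of 0.89 (0.41 to 1.37). These shares lie near or under the background of their libraries.

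In plasma cells 39 nuclear members reached 100 UMIs and 7 were past the fold with an interval that left out 0, all of them lower in CD4-Cre, where 7.72% of 479 features were higher and 8.77% lower. The members' median was -0.166, beside -0.040 over all features. Cox7b, a subunit of complex IV, stood at 411 and 205 CPM (interval of the log2 ratio -1.59 to -0.42). Ndufa1, a small membrane subunit of complex I, stood at 829 and 468 (-0.82), and Ndufa4, now placed in complex IV, at 1594 and 1013 (-0.65). Ndufb7 (-0.70) and the complex III subunit Uqcrb (-0.63) followed. These values rest on 12 and 16 barcodes, so a few cells may weigh heavily in them. The nuclear sum over plasma cells was -0.063 when the deepest 5% of barcodes were left out and -0.301 when each barcode had equal weight.

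The classes of the pancreas were then set against each other. Compared with T cells of the same library, the nuclear sum had a log2 ratio of -0.19 and -0.15 in B cells (control and CD4-Cre libraries), 0.20 and 0.29 in NK, 0.53 and 0.35 in plasma and 0.00 and 0.05 in myeloid cells. The mt- share outside immunoglobulin ran differently: 0.13 and 0.17 in B, -0.33 and -0.39 in NK, -0.11 and -0.04 in plasma and -0.59 and -0.58 in myeloid cells. B cells thus had fewer nuclear and more mt- UMIs than T cells in both libraries, and NK cells the reverse. mt-Nd6, the least abundant mt- member in T cells, went against the other mt- members in NK cells, at 0.16 and 0.37. These ratios carry no counting interval here.

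Of 88 members tested in NK cells, 69 were higher than in T cells in both libraries (78.4%, beside 47.6% of all features) and 6 lower in both (6.82%, beside 27.2%). In plasma cells 52 of 88 were higher in both (59.1%, beside 26.0%) and 13 lower (14.8%, beside 46.8%). In B cells 14 were higher and 58 lower (15.9% higher, beside 38.1%, and 65.9% lower, beside 42.8%), with 12 of the 12 tested complex IV members lower in both. In myeloid cells 33 of 89 were higher and 42 lower (37.1% higher, beside 31.6%, and 47.2% lower, beside 58.8%). Of the complex IV members 11 of 13 were higher there, and of the complex I members 20 of 36 were lower (55.6%), near the share of all features. The median log2 ratios in the control and CD4-Cre libraries were 0.21 and 0.29 in NK, 0.43 and 0.25 in plasma, -0.15 and -0.12 in B and -0.08 and -0.01 in myeloid cells. Over all features they were 0.12 and 0.14, -0.32 and -0.27, -0.06 and 0.01, and -0.31 and -0.31. A level in CPM depends on the other genes a class expresses: cytosolic ribosomal genes, which made up 28.9% and 29.3% of T cell UMIs in the pancreas, had medians of -0.59 and -0.54 in NK, -0.64 and -0.63 in plasma and -0.80 and -0.73 in myeloid cells, and their part in the members' ratios was not tested. Plasma barcodes were also deep, at a median of 22677 and 25213 UMIs against 3433 and 3548.5 in T barcodes. A UMI of the mitotic genes Mki67, Top2a, Birc5, Ccnb2 or Ube2c was found in 50% and 43.8% of plasma barcodes, against 4.74% and 4.62% of T barcodes. The part of depth and of these mitotic genes in the plasma ratios was not tested.

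A stricter fold of log2 1 in both libraries was passed by 0 of 88 members in NK cells, where 5.27% of features were higher and 6.04% lower. It was passed by 1 of 88 in B cells, where 7.05% were higher and 11% lower. In plasma cells 6 of 88 were higher, where 7.38% were higher and 18.3% lower. In myeloid cells 1 of 89 was higher, where 13.8% were higher and 16.3% lower. No member was lower by that fold in any class.

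**Figure D4:**
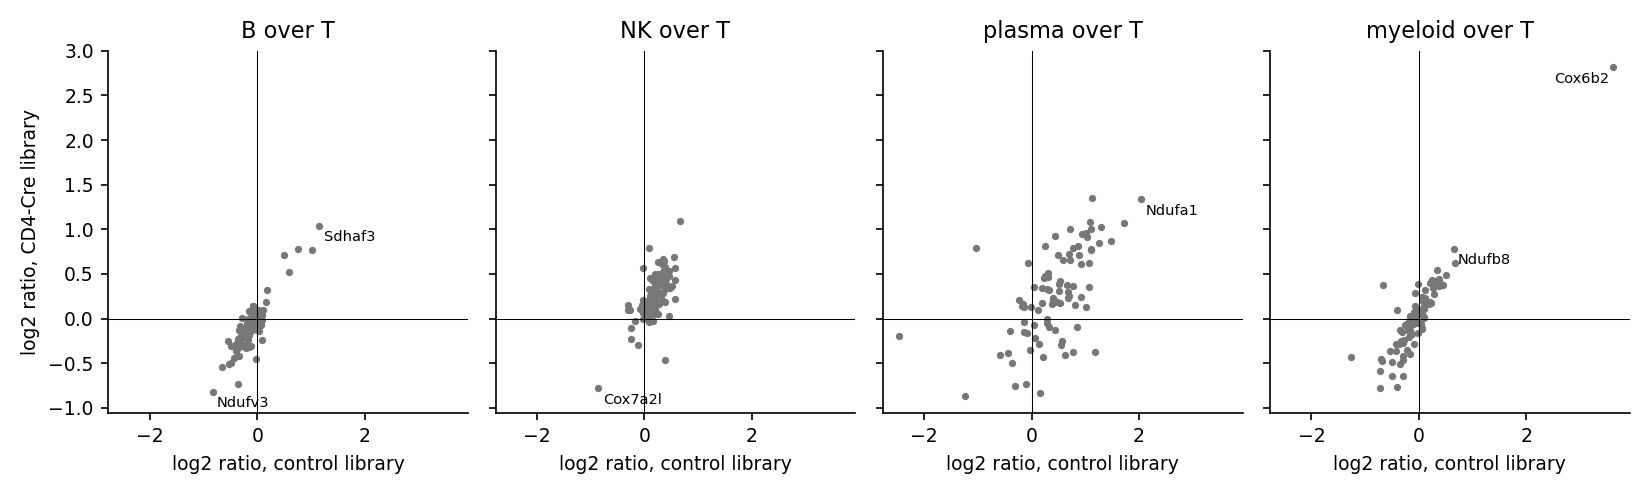
Log2 ratio of each nuclear member in B, NK, plasma and myeloid barcodes over T barcodes, pancreas control library on the x axis and CD4-Cre library on the y axis, 1 point per member. NK members lie mostly in the upper right (69 of 88), B members in the lower left (58 of 88), and Cox7a2l is the lowest NK member (-0.86 and -0.78); 2 of 88 plasma members with 0 UMIs are not drawn.

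Cox7a2l, a factor that joins complexes III and IV into supercomplexes, was lower in all 4 classes than in T cells of the same library. Its level was 402 CPM in T and 222 in NK cells of the control library, and 376 and 219 in the CD4-Cre library (-0.86 and -0.78). In plasma cells its ratio to T cells was -1.23 and -0.87, in myeloid cells -0.51 and -0.64, and in B cells -0.11 and -0.30. Uqcrh was also lower in the 4 classes, at -0.22 and -0.29 in B, -0.26 and -0.23 in NK, -0.59 and -0.41 in plasma and -0.50 and -0.49 in myeloid cells. Cox8a was higher in NK cells, at 793 and 1171 in the control library and 789 and 1165 in the CD4-Cre library (0.56 in each), and in myeloid cells (0.41 and 0.39). Ndufa4 was higher in NK (0.56 and 0.69) and plasma cells (1.72 and 1.07), and Cox5b in NK cells (0.47 and 0.48). Ndufa1 (2.04 and 1.33), Ndufs8 (1.12 and 1.35), which carries iron-sulphur clusters in complex I, and Uqcr11 (1.09 and 1.09) led in plasma cells.

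In B cells 3 of the 4 assembly factors of complex II stood among the highest members: Sdhaf3 at 1.16 and 1.04, Sdhaf1 at 0.75 and 0.78 and Sdhaf2 at 0.60 and 0.52, of which the first and second serve the iron-sulphur subunit. Sdhaf4 stood at -0.15 and 0.08. Atp5s, a coupling factor of ATP synthase, stood at 1.02 and 0.77 (38 and 53 B cell UMIs). At the low end were Ndufv3, at 198 CPM in T and 111 in B cells of the control library and 206 and 117 in the CD4-Cre library (-0.83 and -0.82), and the ATP synthase stalk subunit Atp5h (-0.65 and -0.55). In myeloid cells Ndufb8 (0.65 and 0.78), the anchor Sdhd (0.67 and 0.62) and Ndufc2 (0.50 and 0.49) were high. Sdhaf2 (-0.72 and -0.78), Ndufs1 (-0.72 and -0.59) and Sdha (-0.69 and -0.47) were low there, so subunits of the same complex II stood on both sides of 0.

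Several members are tissue-restricted isoforms. Cox7b2, Cox8b and Cox8c had 0 UMIs in all listed barcodes, Ndufa4l2 had 3, Cox4i2 6 and Cox7a1 63. With a second row of Atp5o, 4 members were at 0 and 7 had under 100 UMIs. Cox6b2, the testis isoform of a complex IV subunit, had 314 UMIs, of which 67 and 49 were in pancreas myeloid barcodes. Its level there was 18.7 in control and 13.7 in CD4-Cre, beside 1.52 and 1.95 in T cells of the same libraries (log2 ratios of 3.62 and 2.82). Cox6a2, the heart and muscle isoform of another, had 194 UMIs, with 28 and 60 in pancreas myeloid barcodes (levels of 7.81 and 16.8) beside 1 and 15 in T barcodes. Plasma barcodes held 4 and 0 UMIs of Cox6a2 (levels of 25.3 and 0), and all listed barcodes of the 2 pancreas libraries 42 and 142. Siglech, a marker of plasmacytoid dendritic cells, had 54 and 81 UMIs in the pancreas myeloid barcodes. Whether Cox6a2 and Siglech were detected in the same single barcodes was not tested.

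T barcodes were split by UMIs of Cd4 or of Cd8a and Cd8b1 without the other, and called cycling where they had a UMI of any of 5 mitotic genes (Mki67, Top2a, Birc5, Ccnb2, Ube2c), which deeper barcodes reach more easily. Nuclear levels in the order of the 4 libraries were 22698, 22023, 21513 and 22068 in CD8 barcodes and 19904, 20286, 21761 and 21908 in CD4 barcodes. CD8 exceeded CD4 in both pancreas libraries, while in the lymph node control library CD4 was the higher. Between genotypes the pancreas log2 ratio was 0.027 in CD4 (879 and 2052 barcodes) and -0.044 in CD8 barcodes (426 and 669), so the sum near 0 over all T cells holds subsets of opposite sign. The CD4 subset held 879 of 2237 T barcodes in control and 2052 of 4024 in CD4-Cre, and the CD8 subset 426 and 669 of these. The remaining T barcodes fell in neither subset and were not compared. The part of these remaining barcodes and of the subset shares in the sum was not tested. Cycling barcodes made up 9.86% of CD8 barcodes in control and 7.92% in CD4-Cre pancreas, and 3.41% and 4.19% of CD4 barcodes. Their part in the subset levels and ratios was not tested. Cycling barcodes stood at 27178, 27045, 28789 and 27120, above the others at 20316, 20403, 21170 and 21755, in every library. They made up 4.74%, 4.62%, 3.25% and 1.95% of T barcodes, and 40.6%, 33.2%, 16.7% and 12.2% of those with at least 8000 UMIs, whose level was 26460, 26090, 25581 and 24717. Depth and cycling moved together here, and their separate parts were not tested. The proliferation genes were lower in CD4-Cre lymph node T cells (9 of 10 past the fold, median -1.33) and higher in CD4-Cre pancreas B cells (9 of 9, median 1.18). Over all features 4.79% were lower by the fold in the former and 3.94% higher in the latter. Without cycling barcodes the lymph node T cell log2 ratio was 0.039, against 0.021 with them.

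Neutrophil-gated barcodes, with UMIs of Csf3r and of S100a8 or S100a9, stood far below the other myeloid cells. Their summed nuclear level was 9384 in control (139 barcodes) and 12448 in CD4-Cre (77 barcodes), and their summed mt- share 0.715% and 0.922%. Medians over their single barcodes were 8380 and 9200 for the nuclear level. For the mt- share the medians were 0.134% and 0.118%, with 90th percentiles of 2.02% and 1.98%. A minority of barcodes thus weighed heavily in the summed mt- share, and its order between the libraries was not that of the medians. Myeloid barcodes with the macrophage genes C1qa and C1qb stood at 21823 and 20267 with 2.05% and 1.80% mt- UMIs, and the remaining myeloid barcodes at 22945 and 23158 with 1.77% and 1.74%. Neutrophil-gated barcodes were also the shallow ones, at a median of 2344 and 2072 UMIs. The C1q-gated barcodes had 8841 and 8333, and the remaining myeloid barcodes 10671 and 10370. Myeloid barcodes with under 2000 UMIs stood at 11935 and 11814, and those with at least 8000 at 22642 and 22865, so depth moved with the level over all myeloid barcodes together. Across myeloid barcodes the nuclear level and the mt- share had Spearman's rho of 0.46 (450 barcodes) and 0.33 (398), whereas across T barcodes rho was -0.18, -0.16, -0.09 and -0.07 (2237, 4024, 2768 and 5538). Barcodes of a library share its preparation and each pair of values shares the barcode's depth, so these are descriptions. The myeloid depth values and rho span subsets that differ in depth, nuclear level and mt- share, and relations within a subset were not tested.

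The 10% limit removed 73 of 4241, 82 of 6708, 20 of 2938 and 317 of 5962 barcodes with at least 500 genes, or 1.72%, 1.22%, 0.681% and 5.32%. Lymph node CD4-Cre was the library with the most (interval 4.76% to 5.92%), 131 of its 317 in the T gate and 186 in no gate. Without the limit the nuclear level changed little: it was 20998 and 21012 in pancreas T, 18392 and 18863 in B, 24069 and 25610 in NK, 30030 and 26780 in plasma, 20978 and 21696 in myeloid and 21619 and 21882 in lymph node T cells. The mt- share became 2.67% and 2.63% in pancreas T, 2.92% and 2.97% in B, 2.22% and 1.97% in NK, 1.67% and 1.42% in plasma, 1.83% and 1.72% in myeloid and 2.66% and 2.83% in lymph node T cells. The genotype log2 ratio of the mt- share thereby went from -0.082 to -0.175 in NK, from -0.022 to -0.235 in plasma, from -0.018 to -0.086 in myeloid and from 0.056 to 0.091 in lymph node T cells. The barcodes added numbered 3 in control and 1 in CD4-Cre for NK, 1 and 0 for plasma, 11 and 3 for myeloid, and 10 and 131 for lymph node T cells.

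Barcodes above the limit were not alike between tissues. T barcodes above it had a nuclear level of 16989 and 17484 in the pancreas (28 and 30 barcodes) and of 8749 and 9571 in the lymph node (10 and 131). Their median depth was 1438, 1924.5, 1148 and 1015 UMIs. Malat1, a nuclear-retained RNA, made up 0.99%, 0.76%, 1.59% and 1.40% of their UMIs, against 0.36%, 0.30%, 0.21% and 0.19% within the limit. Ribosomal protein mRNA made up 16.0%, 16.6%, 4.3% and 6.3%, against 28.9%, 29.3%, 31.4% and 33.7%. By bin of mt- share the nuclear level of T barcodes declined from 21799, 22011, 23085 and 23053 at 1 to 2% to 18645, 19402, 19770 and 19500 at 5 to 10%. Under the 1 to 2% bin it was lower again: at 0 to 1% it was 21689 and 18653 in the pancreas libraries (29 and 33 barcodes) and 21552 in lymph node CD4-Cre (13 barcodes). At 10 to 20% it was 16646 and 18319 in the pancreas libraries (27 and 24 barcodes) and 9900 in lymph node CD4-Cre (103 barcodes), and in the last of these 8073 above 20% (28 barcodes).

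**Figure D5:**
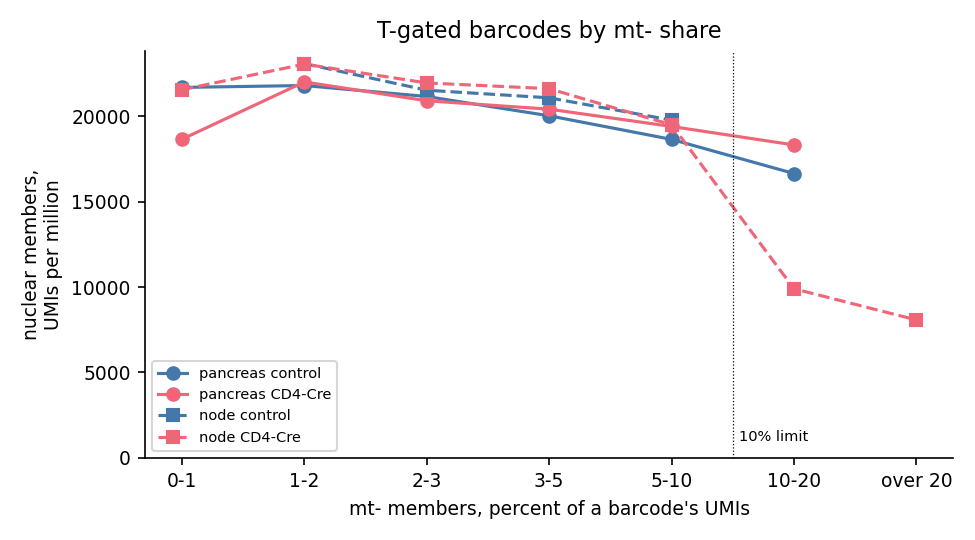
Nuclear level of T barcodes (CPM, UMIs per 1000000 outside mt- and immunoglobulin genes) by bin of mt- share, 1 line per library (node is the pancreatic lymph node), with the 10% limit dotted and bins under 10 barcodes not drawn. All 4 libraries lie between 18645 and 19770 at 5 to 10%, and lymph node CD4-Cre falls to 9900 at 10 to 20%.

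Genes that work beside the complexes were compared as lists. The genes tested in pancreas T cells were 14 of the citric acid cycle, 15 of glycolysis, 78 of the mitochondrial ribosome and 24 assembly factors outside the rule. There were also 16 carriers and regulators, 14 genes of mitochondrial DNA and its control, and 10 chaperones and redox genes. None of them was past the fold in pancreas T cells. The medians of these lists, in that order, were 0.11, 0.09, 0.06, 0.01, 0.03, 0.00 and 0.07. Over all features 1.84% were higher and 3.46% lower in CD4-Cre there. In lymph node T cells, with 27 assembly factors tested and the other lists at the same size, the medians were -0.09, -0.12, -0.01, -0.01, -0.02, -0.18 and -0.03, beside -0.087 over all features. Of all 9446 features tested there, 4.79% were past the fold lower in CD4-Cre and 0.603% higher. Genes of these lists past the fold there were Gapdh of glycolysis (-0.65) and Esrra, a nuclear receptor that activates respiratory genes (-0.71). The remaining ones were Coq10a of the carriers and regulators (-0.62) and Mrpl53 of the mitochondrial ribosome (-0.73). All of these genes were lower in CD4-Cre, the direction of most calls of that library pair. They were chosen for print after their values were seen. Between classes, the mitochondrial ribosome genes had medians over T cells of 0.40 and 0.37 in plasma cells, beside -0.32 and -0.27 over all features. In NK cells they had 0.06 and 0.18, near the 0.12 and 0.14 over all features. In myeloid cells the genes of mitochondrial DNA and its control stood at -0.73 and -0.74 and the assembly factors outside the rule at -0.45 and -0.55. Over all features the myeloid medians were -0.31 and -0.31, and the members' own were -0.08 and -0.01.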

How the data were processed

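The measurements were UMI counts of 31053 features per barcode in 4 libraries. The deposited matrices hold the authors' counts, made with Cell Ranger on mm10 per the submitters' processing notes. The matrix headers give software version 3.0.0, and the annotation and the use of strand are not given in the sources used here. Many members have processed pseudogenes or nuclear copies, and how reads shared with these were counted is also not given there, so levels of single members are uncertain to that extent.

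Library totals were 14851217 to 32798133 UMIs over 3059 to 6963 barcodes. Barcodes with at least 500 genes and at most 10% mt- UMIs were gated by markers (at least 2 for T, B and NK, 3 for plasma and myeloid), a barcode that passed T and NK gates counting as T and one that passed plasma and B gates as plasma. Other barcodes in 2 gates were left out, and no doublet caller was run. UMIs were summed per library and class, since cells are not replicates and each group is 1 library. Ratios carry exact conditional binomial intervals, levels exact Poisson and shares Clopper-Pearson intervals at 95%. Alternative library sizes came from edgeR 4.0.16 (TMM) and DESeq2 1.42.0 (R 4.3.3). The rest used Python 3.11.15, numpy 2.4.6, scipy 1.17.1 and pandas 2.3.3. A simulation drew Poisson counts with 200 genes changed by log2 1, with no spread between animals, preparations or cells. It thus describes counting error only, for a change set well past the fold of 0.5. Of the changed genes 98% passed that fold in pancreas T (9260 genes), 99% in NK (3293) and 99.5% in lymph node T (9446). Of the unchanged genes 0.916%, 2.94% and 0.681% passed it by counting error alone.

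Named genes were the 13 mt- members, nuclear members past the fold with an interval that leaves out 0 (at most 5 in each direction per comparison), the 5 highest and 5 lowest members per class over T cells, and the 3 most abundant per complex; of these the text prints a selection. The extremes of each genotype comparison in T cells, isoforms and genes of the lists were named after their values were seen. The members and lists were chosen with earlier results of these data known.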

Additional observations from a re-analysis of the deposited data

How the results depend on the processing

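No paired analysis was possible because each group is 1 library. Values are log2 ratios of CD4-Cre over control unless said otherwise and the cause of each move was not tested. A further 70 alternative values stayed within the counting error, or a count within 1.5 times, of the main value. Of these, 5 had the other sign: the nuclear ratio of pancreas T cells, whose interval holds 0, was -0.0032 with a 5% limit, -0.0020 with 1000 genes, -0.0033 with 1 more marker and -0.0038 with equal weight per barcode, and the plasma mt- ratio was 0.025 without mt-Atp8 and mt-Atp6. With a 5% mt- limit the mt- ratio turned to 0.0077 in pancreas T, -0.00013 in B and 0.025 in myeloid cells and was 0.041 in lymph node T cells. Without a limit it was -0.175 in NK, -0.235 in plasma, -0.086 in myeloid and 0.091 in lymph node T cells. With at least 1000 genes per barcode it was -0.016 in pancreas T, -0.00092 in B and -0.035 in myeloid cells, and the nuclear ratio of myeloid cells was 0.024. With 1 more marker per gate the plasma ratios were -0.285 (nuclear) and -0.185 (mt-).

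With DESeq2 library sizes the nuclear ratios were 0.010 in pancreas T, -0.029 in B and 0.123 in lymph node T cells, and the mt- ratios -0.016 in pancreas T, -0.052 in B, 0.095 in plasma and 0.160 in lymph node T cells. With TMM the nuclear ratios were 0.016 in pancreas T, -0.031 in B, 0.069 in myeloid and 0.121 in lymph node T cells, and the mt- ratios -0.0099, -0.054, 0.0048 and 0.158 in these classes and 0.082 in plasma cells. Over all UMIs the plasma nuclear ratio was -0.241, and outside immunoglobulin its mt- ratio was 0.041. With equal weight per barcode the nuclear ratios were 0.010 in B, 0.060 in NK, -0.301 in plasma, 0.090 in myeloid and 0.036 in lymph node T cells, and the mt- ratios -0.046 in pancreas T, 0.033 in B, -0.024 in NK and 0.072 in myeloid cells. With the deepest 5% of barcodes left out, the nuclear ratios were 0.0082 in B, -0.063 in plasma, 0.067 in myeloid and 0.044 in lymph node T cells, and the mt- ratios -0.043 in pancreas T, 0.105 in plasma, 0.029 in myeloid and 0.048 in lymph node T cells. Without cycling barcodes the mt- ratio was -0.035 in pancreas T and 0.049 in lymph node T cells, and the nuclear ratio 0.039 in lymph node T cells.

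Members past the fold numbered 1 in pancreas T, 4 in B, 7 in NK and 5 in myeloid cells at a log2 ratio of 0.3, and 0 in NK and myeloid cells at a log2 ratio of 1. With at least 20 UMIs they numbered 4 in NK and 4 in myeloid cells. With no UMI minimum they numbered 1 in pancreas T, 1 in B, 5 in NK, 4 in myeloid and 1 in lymph node T cells.

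Further alternatives were chosen after seeing the data. In CD4 barcodes the nuclear ratio was 0.027 in pancreas and 0.0097 in lymph node, and the pancreas mt- ratio -0.0070. In CD8 barcodes the nuclear ratios were -0.044 and 0.037, and the lymph node mt- ratio 0.044. Without neutrophil-gated barcodes the myeloid ratios were -0.020 (nuclear) and -0.085 (mt-). Without mt-Atp8 and mt-Atp6 the mt- ratio was 0.0056 in pancreas T, 0.044 in B, -0.051 in NK, 0.0082 in myeloid and 0.072 in lymph node T cells.

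The sign of the nuclear sum thus held under the alternatives run in NK (0.060 to 0.090), plasma (-0.301 to -0.063) and lymph node T cells (0.0097 to 0.123), and that of the mt- sum in NK (-0.175 to -0.024) and lymph node T cells (0.041 to 0.160). Counting intervals do not cover differences between animals or preparations, which 1 library per group cannot show. Depth limits single members most in plasma cells, where 39 of 97 nuclear members reached 100 UMIs.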
